A study of Mus musculus with 19 samples.

Results

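The genes described here are 32 members of the cadherin superfamily, namely the classical and atypical cadherins and the nonclustered protocadherins, read from the Ensembl gene tables of 7 libraries of mouse primary somatosensory cortex (S1). They were taken by name from a list that was chosen with earlier results of these data known. The libraries held 24130 genes listed in at least 1 of them, and all 32 were listed. The cortex of male C57BL/6 mice (C57BL/6J in the study's methods) aged 56 days, with no allele or treatment named, was cut under visual guidance into 6 segments. Segment A took mostly layers 1-3, B took layer 4, C and D the upper and lower parts of layer 5, E took layer 6 and F its deepest sublayer, 6b, and their polyadenylated RNA was sequenced from paired ends. Every segment was pooled from the same 8 mice, except that RNA of segment B was pooled by litter into libraries B1 and B2 of 4 mice each, so that layer 4 alone had replicates (n = 2). The series holds 12 further samples of dorsal and lateral cortex, which were not analysed here. A segment is dissected tissue and not a sorted cell type, so that a higher value may come from more cells of a type or from more RNA per cell, which cannot be told apart in bulk samples.

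Cadherins are membrane proteins whose extracellular repeats bind calcium and, in most members, bind the same or a related cadherin on the facing cell. The classical cadherins of types I and II hold their partners through these repeats and reach actin through catenins bound to their tail, and neurons that carry different type II cadherins form distinct sets of contacts. The delta protocadherins, the seven-pass Celsr proteins and the very large Fat proteins are wider relatives that act in axon growth, synapse formation and planar cell polarity.

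Expression is given as FPKM, the fragments per kilobase of gene model scaled to the mapped fragments of the library, which puts genes of different length on 1 scale. The shallowest library was A, at an estimated 31.3 M fragments, and the deepest was B2, at 74.9 M. Mitochondrial transcripts took 5.03% of the FPKM in F and 21.8% in A. They took 7.76% in B1 and 18.2% in B2, so that the litters of layer 4 also differed in this. The labels were checked against marker genes. Summed FPKM of 4 neuronal markers lay between 1054 in A and 2413 in D, though 1 of them, Rbfox3, was highest in A (337) and lowest in F (107). Of the 4 markers of layers 2-3, 2 were highest in A and 2 in B. The 3 layer 4 markers (Rorb, Scnn1a and Rspo1) were highest in B and 3 of 4 layer 5 markers in C. The 4 layer 6 markers were highest in E or F and the 4 layer 6b markers were highest in F. The 6 striatal markers were all highest in F, with sums from 41.5 in C to 184 in F. Most of each sum was Ppp1r1b (36.2 in C and 151 in F), which the study also counts among classical cortical layer markers. The others were at 1.53 (Gpr6) to 11.8 (Drd1) in F. The part of striatal tissue in the values of F was not tested. Long transcripts were underrepresented in A. The median deviation from a gene's own mean over the libraries was -0.58 log2 units in A and 0.23 in F for the longest of 3 length classes, against 0.25 and 0.08 for the shortest. This touches the cadherins directly, since their median transcript length was 5826 nt against 3033 nt over all genes tested and 26 of the 32 fell in the longest class. Slopes are therefore also given after centring each library within bins of transcript length, a step added after the data had been seen. GC content differed between libraries as well. For the third of genes lowest in GC the median deviation was -0.57 in A, 0.30 in E and 0.22 in F. For the third highest in GC it was 0.07, -0.03 and 0.10. Median transcript GC was 46.2% for the cadherins and 49.9% over all genes tested. Myelin genes rose steeply towards the white matter, with the summed FPKM of 8 oligodendrocyte markers at 319 in A and 12193 in F. The 5 markers of oligodendrocyte precursors summed to 19.4 in A and 189 in F. The 6 astrocyte markers summed to 289 in A, 425 to 470 in the libraries from B to E and 630 in F. Among them Aqp4 alone had a called rise, and Aldh1l1 was at 24.6 in A and 21.0 in F. The 6 markers of the leptomeninges stood at 37.5 in A against 4.52 to 7.37 in the other libraries, though 1 of them, Lum, was at 0.164 in A and highest in D (0.285). No marker of the oligodendrocyte or precursor lists was at 0 in any library.

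Each gene was placed in the segment of its highest FPKM, B being the average of its libraries, and its share there is its FPKM over the sum of the 6 segments. Of the 29 genes whose widest 95% interval was at most 50% of their mean FPKM (classifiable genes), 11 were highest in F, 5 in B, 5 in C, 3 in A, 3 in E and 2 in D. Among all 11409 classifiable genes, 31.9% were highest in F, 7.98% in B, 10.6% in C, 20.9% in A, 18.9% in E and 9.72% in D. The cadherins were thus spread over every segment. The 3 in A were Celsr2, Cdh4 and Cdh22, and Celsr2 by its most abundant transcript was highest in F. The remaining 3 genes had wide intervals, and of these Cdh7 and Cdh23 were highest in C and Cdh13 in F. The median highest share of the cadherins was 26.8% against 22.0% over all classifiable genes, and the median fold between highest and lowest segment was 3.55 against 2.24, differences that were not tested. After centring within length bins 9 were highest in A and 7 in F, but the shares over all genes are not given on that scale. The 6 that moved to A were Pcdh8, Pcdh9, Pcdh15, Pcdh19, Celsr3 and Fat4, which on the deposited scale differed between segments by 2.28-fold (Pcdh8) or less.

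**Figure D1:**
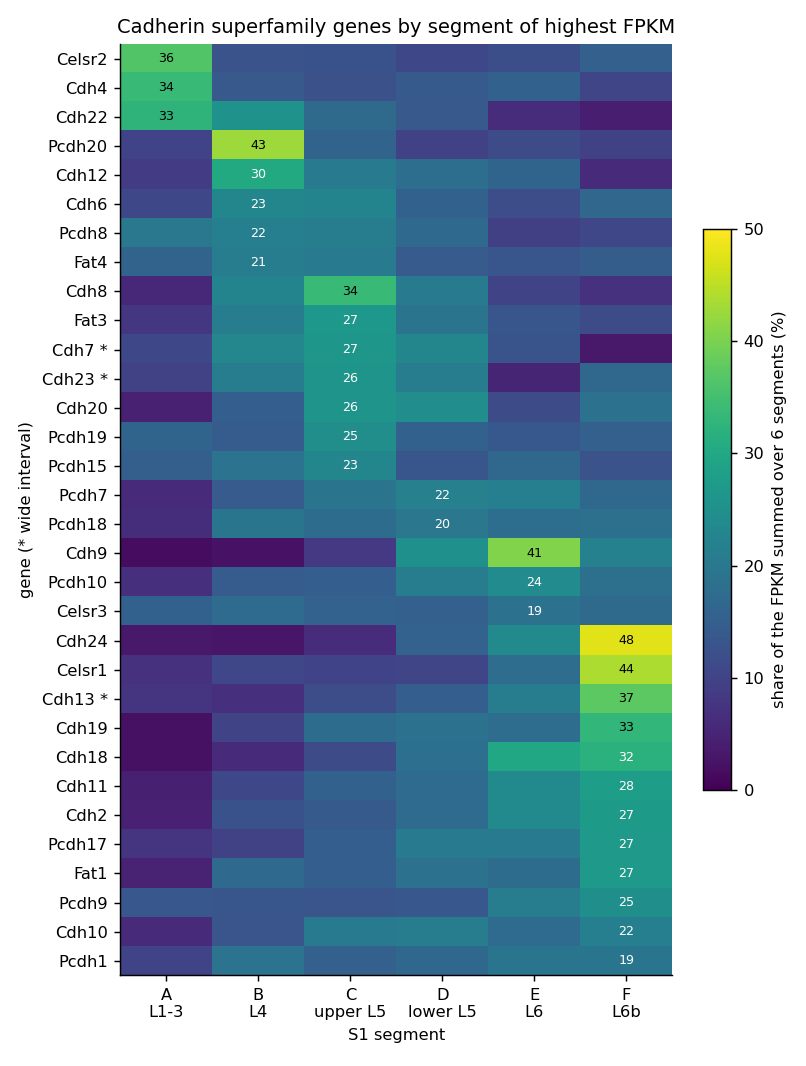
Share of each gene's FPKM in the 6 S1 segments (colour, percent of the sum over segments, B averaged over its litters), with genes ordered by the segment of their highest FPKM and that share printed in its cell. The highest shares belong to Cdh24 in F (47.8%), Celsr1 in F (43.8%), Pcdh20 in B (42.7%) and Cdh9 in E (40.6%), and asterisks mark the 3 genes with wide intervals.

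To ask which genes followed cortical depth, a linear and quadratic trend over segment position was fitted to log2(FPKM + 0.1) with limma across all 17844 genes whose mean reached 0.1 FPKM. Of the 32 cadherins, 18 (56.2%) passed an adjusted p of 0.05, against 36.5% of all genes tested. A straight slope alone was called for 10 cadherins, 9 rising with depth (12.4% of all genes) and 1 falling (2.54% of all genes). The median slope was 0.13 log2 units per segment for the cadherins and 0.08 for all genes. In length bins the trend was called for 21 cadherins (30.7% of all genes), with 8 rising (4.31%) and 3 falling (5.72%), and the median slopes were -0.01 and -0.02. In bins of GC content 15 trends were called (23.6%), with 7 rising (3.98%) and 2 falling (4.67%). With libraries scaled by median ratios 17 were called (28%), with 7 rising (4.24%) and 1 falling (3.65%). Without A, the library with the fewest fragments, 13 trends were called (12.1%), with 8 rising (9.95%) and 5 falling (2.71%). With 1 library a segment outside B, these p-values set the fitted trend against the scatter of the pooled samples around it. Variation between mice enters through B1 and B2 only. A fit with 6 separate segments (limma), whose error rests on that pair alone, called 0 of the 32 cadherins and 0 of all genes.

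**Figure D2:**
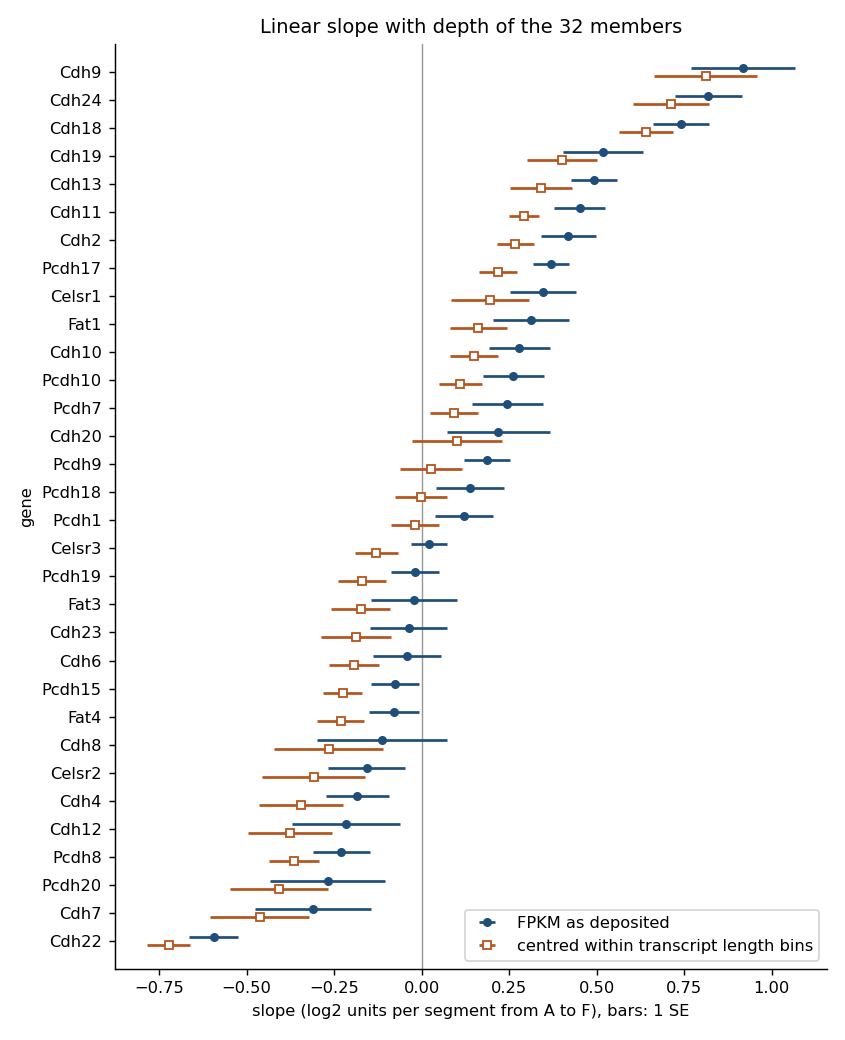
Linear slope with depth (log2 units per segment from A to F, bars 1 SE) of the 32 genes, from FPKM as deposited (filled circles) and after centring within transcript length bins (open squares). The order is led by Cdh9, Cdh24 and Cdh18 and ends with Cdh22, and every square lies to the left of its circle.

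The 2 type I cadherins differed in pattern. Cdh2, N-cadherin of neurons and neural progenitors, was at 5.10 FPKM in A, 14.2 and 13.2 in B1 and B2, 15.4 and 19.1 in C and D, 26.3 in E and 29.8 in F. Its level was higher at every step below layer 4, with a slope of 0.42 ± 0.08 log2 units per segment (SE, 7 libraries, limma adjusted p = 0.0148), or 0.27 ± 0.05 in length bins. In GC bins the slope was 0.29 ± 0.07 and was not called (limma adjusted p = 0.0520). The call belongs to the sum of its 3 transcripts, 2 of which were not listed in every library, and the most abundant transcript alone, which was not listed in B1, had a larger slope of 0.93 that was not called (adjusted p = 0.145, the highest of its alternatives, which began at 0.00651). Cdh4, R-cadherin, was at 5.16 FPKM in A, 2.24 and 2.04 in B1 and B2, 1.897 and 2.18 in C and D, 2.37 in E and 1.61 in F. Segment A held 33.6% of its summed FPKM and lay above the other libraries, whose values spanned less than 1 FPKM, but the slope was not called (-0.18 ± 0.09, adjusted p = 0.180).

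Type II cadherins gave the steepest rises. Cdh9 was at 0.55 FPKM in A, 0.66 and 0.94 in B1 and B2, 2.73 and 8.24 in C and D, 13.4 in E and 7.22 in F. It was low in layers 1-4, climbed through layer 5, peaked in layer 6 and was lower in layer 6b, and its fold between highest and lowest segment, 24.2, was the largest of the 32. Its slope was 0.92 ± 0.15 (adjusted p = 0.00922). Cdh18 was at 1.24 FPKM in A, 3.61 and 3.29 in B1 and B2, 6.63 and 10.4 in C and D, 17.1 in E and 18.2 in F, so that E and F lay close together and far above the superficial segments. Its slope was 0.74 ± 0.08 (adjusted p = 0.00223), with adjusted p between 0.00162 and 0.0126 in every alternative run.

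Cdh24 was at 0.56 FPKM in A, 0.69 and 0.35 in B1 and B2, 1.07 and 2.62 in C and D, 3.96 in E and 8.00 in F. Of its summed FPKM, 47.8% lay in F, the largest share of any classifiable cadherin, and its slope was 0.82 ± 0.10 (adjusted p = 0.00282), although B1 and B2 themselves differed 2.003-fold. Cdh11 was at 2.69 FPKM in A, 6.97 and 6.13 in B1 and B2, 9.35 and 10.6 in C and D, 14.4 in E and 16.7 in F, an increase at each step (slope 0.45 ± 0.07, adjusted p = 0.00916). Cdh19 was at 0.23 FPKM in A, 1.24 and 0.85 in B1 and B2, 1.78 and 1.91 in C and D, 1.80 in E and 3.36 in F. It was nearly level from C to E, and its call (slope 0.52 ± 0.12, adjusted p = 0.0268) was lost in 7 of the alternatives, among them those without B2, D, E or F, where the adjusted p reached 0.0793. In length bins the slopes of Cdh9, Cdh18, Cdh24, Cdh11 and Cdh19 were 0.81, 0.64, 0.71, 0.29 and 0.40, each called. The oligodendrocyte markers rose from A to F, by the amounts given above. The 4 layer 6 markers rose too, with a summed FPKM of 4.11 in A, 76.3 in E and 77.5 in F. Of 6 microglia markers, 4 had a called rise, and 1 in length bins. Of the 5 genes, Cdh9 alone was lower in F than in E. The part of these cell types in the rise of the 5 genes or of Cdh2, Cdh13, Pcdh17 and Celsr1 was not tested.

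**Figure D3:**
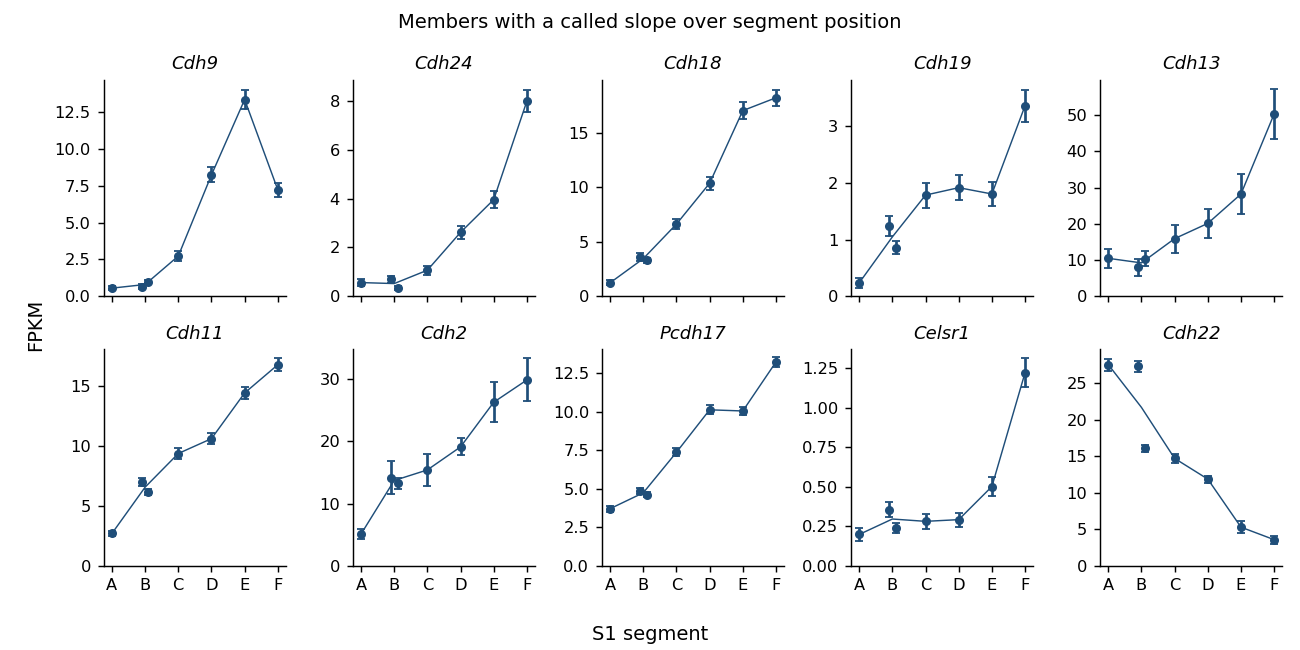
FPKM of the 10 genes with a called slope in the 7 S1 libraries (points, with the deposited 95% intervals; lines join the segments, with B averaged over its litters). Cdh9 turns down in F, Cdh24, Celsr1 and Cdh13 step up between E and F, and Cdh22 declines from A to F.

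Promoter sequences of 3 genes that rose with depth, Cdh18, Cdh24 and Pcdh17, are shown with that of Cdh8, which was highest in upper layer 5. They were chosen after the values were seen. For each, the bases that follow the RefSeq start were found within a GENCODE transcript of the gene. Each line gives the bases upstream of the start in build GRCm38.p6, on the strand of the gene, with capitals marking every match on either strand to the GC box (GGGCGG), the TATA box (TATAAA), the core site of ROR receptors (AGGTCA) or the E-box (CAGCTG), none of which overlap one another. The windows are chr15:23036213-23036454 (plus strand, Cdh18), chr14:54641365-54641614 (minus strand, Cdh24), chr14:84443313-84443562 (plus strand, Pcdh17) and chr8:99416472-99416721 (minus strand, Cdh8, overlapping an exon of the antisense gene A330008L17Rik). The RefSeq start need not be the one used in cortex.
Cdh18: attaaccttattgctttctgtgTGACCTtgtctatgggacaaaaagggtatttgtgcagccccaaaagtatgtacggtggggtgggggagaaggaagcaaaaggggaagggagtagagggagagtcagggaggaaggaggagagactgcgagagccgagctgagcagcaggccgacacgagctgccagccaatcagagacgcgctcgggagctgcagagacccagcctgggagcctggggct
Cdh24: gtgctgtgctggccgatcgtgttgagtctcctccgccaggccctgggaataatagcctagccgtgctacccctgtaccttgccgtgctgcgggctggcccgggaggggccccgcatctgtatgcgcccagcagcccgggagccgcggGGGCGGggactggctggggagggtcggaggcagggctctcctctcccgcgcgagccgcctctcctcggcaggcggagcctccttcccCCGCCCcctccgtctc
Pcdh17: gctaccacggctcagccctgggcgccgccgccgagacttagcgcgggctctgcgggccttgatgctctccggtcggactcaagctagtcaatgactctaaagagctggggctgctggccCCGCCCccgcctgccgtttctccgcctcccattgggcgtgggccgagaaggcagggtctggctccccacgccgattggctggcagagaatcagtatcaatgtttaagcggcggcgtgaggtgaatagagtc
Cdh8: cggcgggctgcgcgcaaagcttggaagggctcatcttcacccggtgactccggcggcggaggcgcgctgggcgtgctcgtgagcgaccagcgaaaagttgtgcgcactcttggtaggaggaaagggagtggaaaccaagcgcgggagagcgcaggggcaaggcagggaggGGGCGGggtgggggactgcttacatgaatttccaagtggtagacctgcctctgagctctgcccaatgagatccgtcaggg

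Among the printed windows, Cdh24 held 2 GC boxes and Pcdh17 and Cdh8 held 1 each, while Cdh18 held none and had 1 match to the ROR site. RefSeq entries used here covered 25 of the 32 genes, with chromosome 18, which holds Cdh2 and Pcdh1, left out. Of the 25, 9 had a GC box within 250 bases before a start, 2 a TATA box, 1 an ROR site and 2 an E-box. Over all 32851 RefSeq windows of that length, from which no chromosome was left out, the shares were 32.7%, 12.4%, 14.0% and 13%. A gene was counted if any of its windows held the site, whereas these shares are over single windows. The 250 bases were read in full, also where annotated exons of the same gene cover them. Such exons covered all 250 bases of the Cdh7 windows, and 159 and 118 bases for Cdh9 and Cdh12, the 2 genes with an E-box. Over the full 250 bases Cdh24 held 22 CpG dinucleotides, Pcdh17 21, Cdh8 20 and Cdh18 8, against a median of 6 over all windows.

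Cdh22 alone fell with depth on the deposited scale. It was at 27.5 FPKM in A, 27.3 and 16.1 in B1 and B2, 14.7 and 11.9 in C and D, 5.30 in E and 3.58 in F. The value fell 7.69-fold from A to F, with a slope of -0.59 ± 0.07 (limma adjusted p = 0.00283) and -0.72 ± 0.06 in length bins. The litters of layer 4 did not match each other here, since B1 lay at the level of A and B2 near that of C.

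Another 4 type II cadherins had a called trend but no called slope. Of these, Cdh8 and Cdh7 were highest in C, Cdh12 in B and Cdh10 in F. Cdh8 was at 3.29 FPKM in A, 13.9 and 11.9 in B1 and B2, 19.3 and 11.8 in C and D, 5.82 in E and 4.07 in F, a single peak in upper layer 5 (trend adjusted p = 0.0165). Without C its trend had an adjusted p of 0.0577, the highest of its alternatives, which began at 0.0111. Cdh7 was at 2.19 FPKM in A, 4.75 and 4.70 in B1 and B2, 5.39 and 4.68 in C and D, 2.65 in E and 0.70 in F. It formed a plateau from B to D and was lowest in layer 6b (trend adjusted p = 0.00206), but its 8 transcripts left wide intervals. Cdh12 was at 2.31 FPKM in A, 7.61 and 8.05 in B1 and B2, 5.34 and 4.67 in C and D, 4.18 in E and 1.52 in F, highest in layer 4 in both litters (trend adjusted p = 0.0255). Cdh10 was at 5.00 FPKM in A, 10.7 and 11.1 in B1 and B2, 16.9 and 17.5 in C and D, 14.4 in E and 17.7 in F. It stepped up between A and C and then stayed between 14.4 and 17.7 (trend adjusted p = 0.00933), and its slope was not called (0.28 ± 0.09, adjusted p = 0.0651). The GC content of its longest transcript was 33.8%. Its trend call was lost in GC bins (limma adjusted p = 0.159) and without A (0.147).

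Between D and E, Cdh8, Cdh20 and Cdh22 were at least 2-fold lower in E with nonoverlapping intervals, while 4.37% of all classifiable genes differed so in either direction. The remaining type II genes were not called. Cdh20 ranged from 1.59 FPKM in A to 8.92 in C and Cdh6 from 4.49 in A to 10.9 in B1.

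**Figure D4:**
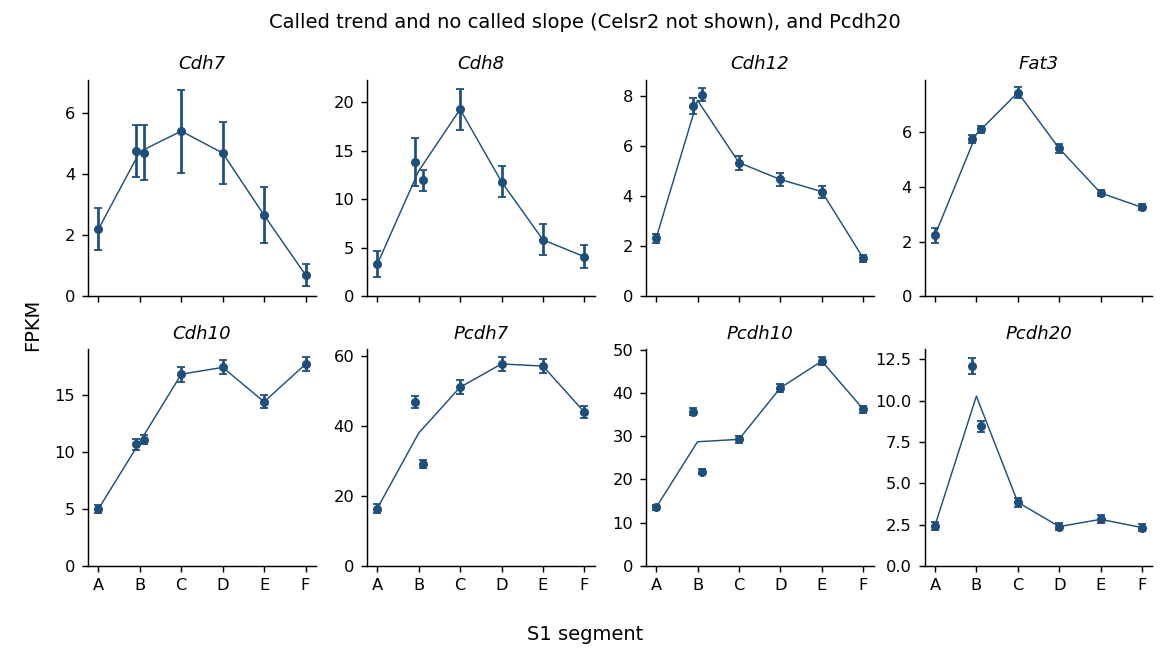
FPKM in the 7 S1 libraries (points, deposited 95% intervals; lines join segments, B averaged over its litters) of 7 genes with a called trend but no called slope, and of Pcdh20. Cdh8, Fat3 and Cdh7 peak in C, Cdh12 and Pcdh20 in B, Pcdh7 in D and Pcdh10 in E, and B1 lies above B2 for Pcdh7, Pcdh10 and Pcdh20.

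Of these type II genes, 5 are neighbours on chromosome 15. In mm9, the build of the deposited files, Cdh6 lies at chr15:12963955-13103394, Cdh9 at chr15:16707856-16785988, Cdh10 at chr15:18750084-18943989, Cdh12 at chr15:21041207-21519288 and Cdh18 at chr15:22966218-23376169. Their segments of highest FPKM were B, E, F, B and F in that order. Cdh12 and Cdh18, next to each other, had slopes of -0.22 and 0.74. On chromosome 1, Cdh20 (chr1:106665106-106892058), Cdh7 (chr1:111879008-112036734) and Cdh19 (chr1:112785772-112873949) were highest in C, C and F.

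Cdh13, T-cadherin, which is held in the membrane by a lipid anchor and lacks a cytoplasmic tail, was at 10.5 FPKM in A, 8.01 and 10.4 in B1 and B2, 15.9 and 20.1 in C and D, 28.2 in E and 50.4 in F. It was level in A and B and rose from C onward (slope 0.49 ± 0.07, adjusted p = 0.00487; 0.34 ± 0.09 in length bins). Its widest interval was 66.8% of its mean, and 1 of its 4 transcripts, ENSMUST00000109073, was listed only in E (8.23 FPKM) and F (15.5 FPKM). Another, ENSMUST00000151842 of 620 nt, was listed only in A (4.02 FPKM, 38.4% of the gene there) and B2 (1.84 FPKM). The level start of the gene therefore rests in part on this short model. The tip-link cadherins of inner ear hair cells were low. Cdh23 ranged from 0.042 FPKM in E to 0.24 in B1 and Pcdh15 from 1.39 in F to 2.46 in C, and neither was called on the deposited scale, though Pcdh15 fell in length bins (-0.23 ± 0.05).

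The delta1 protocadherins Pcdh1 and Pcdh7 had the highest means of the 32 genes, 52.5 and 43.2 FPKM. Pcdh1 was at 31.7 FPKM in A, 79.2 and 38.0 in B1 and B2, 47.3 and 51.5 in C and D, 59.8 in E and 59.8 in F. Its litters in layer 4 differed 2.08-fold, by more than F and A did (1.89-fold), and no trend was called (adjusted p = 0.3996). Pcdh7 was at 16.4 FPKM in A, 46.9 and 29.1 in B1 and B2, 51.1 and 57.8 in C and D, 57.1 in E and 44.0 in F. It was highest in lower layer 5 and layer 6 and lowest in A (trend adjusted p = 0.00957), but was not called in length bins or in GC bins. Pcdh9 ranged from 26.2 FPKM in B1 to 64.1 in F and was not called (trend adjusted p = 0.0510).

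Of the delta2 protocadherins, Pcdh17 rose with depth. It was at 3.71 FPKM in A, 4.86 and 4.61 in B1 and B2, 7.36 and 10.1 in C and D, 10.04 in E and 13.2 in F, with the litters of layer 4 close together (slope 0.37 ± 0.05, adjusted p = 0.00514; 0.22 ± 0.05 in length bins). Pcdh10 was at 13.5 FPKM in A, 35.6 and 21.8 in B1 and B2, 29.2 and 41.1 in C and D, 47.3 in E and 36.2 in F. The value of B1 lay above that of C and near F, and the trend call (adjusted p = 0.0209) was lost in 6 alternatives, length bins among them. Pcdh18 was at 0.29 FPKM in A, 0.95 and 0.81 in B1 and B2, 0.79 and 0.89 in C and D, 0.81 in E and 0.83 in F, low in A and level elsewhere (trend adjusted p = 0.125). Pcdh8, the activity-regulated protocadherin also called arcadlin, ranged from 1.60 FPKM in E to 4.79 in B1, and Pcdh19, the X-linked gene of an epilepsy in females, from 3.17 in E to 5.63 in C. Neither was called on the deposited scale, and Pcdh8 fell in length bins (-0.36 ± 0.07).

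Pcdh20 was the cadherin most concentrated in layer 4. It was at 2.44 FPKM in A, 12.1 and 8.44 in B1 and B2, 3.85 and 2.38 in C and D, 2.82 in E and 2.32 in F, and 42.7% of its summed FPKM lay in B. Both litters lay above every other library, and both neighbours of B differed from it by at least 2-fold with nonoverlapping intervals. No trend was called over the 7 libraries (adjusted p = 0.331), whereas without A the trend was called (adjusted p = 0.0157), with a falling slope of -0.53 ± 0.12 (adjusted p = 0.0300). The layer 4 marker Rspo1 was likewise highest in both litters, at 30.1 FPKM in B1, 18.6 in B2, 4.48 in A and 7.54 in C.

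The seven-pass cadherins act in planar cell polarity. Celsr1 was at 0.20 FPKM in A, 0.36 and 0.24 in B1 and B2, 0.28 and 0.29 in C and D, 0.50 in E and 1.22 in F. It was low from A to D and 43.8% of its summed FPKM lay in F. The slope (0.35 ± 0.09, adjusted p = 0.0456) was lost in 12 alternatives, length bins among them, and its adjusted p ran from 0.0330 to 0.270 over all of them. Celsr3 ranged from 2.66 FPKM in D to 3.37 in B1, the smallest spread between segments of the 32 (1.23-fold).

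Celsr2 had the third highest mean, 43.0 FPKM, and its pattern depended on the transcript model. As a gene it was at 97.2 FPKM in A, 37.1 and 31.2 in B1 and B2, 33.4 and 29.0 in C and D, 31.9 in E and 40.9 in F, so that A held 36.5% of the sum (trend adjusted p = 0.0226). In A, 67.9% of that value belonged to ENSMUST00000133216, a model of 467 nt at chr3:108195297-108196351 (mm9), which had 66.0 FPKM in A and was not listed in the other 6 libraries. This model lies inside the span of the full-length transcript ENSMUST00000090558 of 10598 nt (chr3:108193769-108218470). The full-length transcript was at 16.5 FPKM in A, 30.8 and 21.1 in B1 and B2, 27.6 and 24.6 in C and D, 27.2 in E and 29.8 in F. It was lowest in A, where the gene as a whole was highest, and its trend was not called (adjusted p = 0.249; alternatives for the gene ran from 0.0121 to 0.321). A transcript under 5% of the main transcript of its locus is not listed, and the gene's place in segment A therefore rests on 1 short model in 1 library. Of the 80 transcripts of the 32 genes, 3 were listed in A only, the others being Fat1 and Fat3 models, as were 3 in E only and 3 in F only.

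Pcdh9 was the other gene whose transcripts parted. Its transcript ENSMUST00000068992 of 3714 nt was at 7.40 FPKM in A, 26.2 and 23.4 in B1 and B2, 28.6 and 34.8 in C and D, 46.1 in E and 48.4 in F. It was lowest in A and highest in F, whereas ENSMUST00000074766 of 1104 nt was at 27.6 FPKM in A, 19.2 in B2, 5.41 in C, 8.14 in E and 15.8 in F and was not listed in B1 or D. Of the 5 genes with at least 2 transcripts of narrow interval (Pcdh1, Pcdh7, Pcdh9, Celsr2 and Fat1), transcripts moved in opposite directions by nonoverlapping intervals in Pcdh9 and Celsr2. Such a pair of libraries was found for 81.9% of all genes of this kind. Both genes did so between B1 and B2 as well, as did 38.7% of all such genes. Genes of the shortest length class had median deviations of 0.25 log2 units in A, -0.30 in B1 and -0.07 in B2. For the longest class these were -0.58, -0.05 and -0.09. The part of this length difference in the transcript values of Pcdh9 and Celsr2 was not tested.

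**Figure D5:**
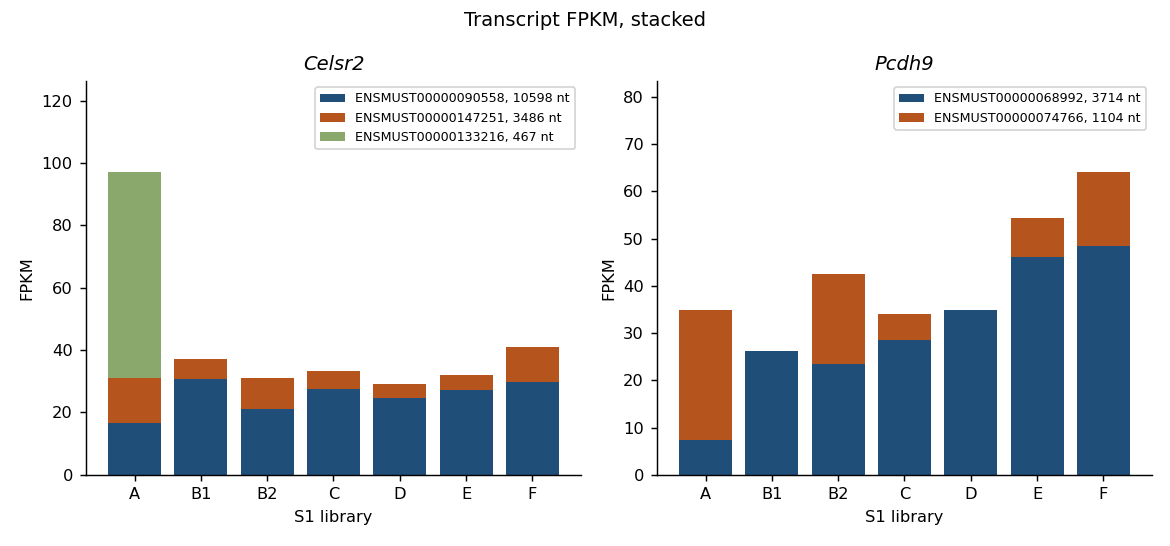
FPKM of the Ensembl transcripts of Celsr2 and Pcdh9 in the 7 S1 libraries, stacked by transcript, with transcript lengths in the key. The 467 nt model of Celsr2 appears in A only, at 66.0 FPKM, and the 1104 nt transcript of Pcdh9 is absent from the bars of B1 and D.

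The Fat cadherins are very large proteins with long rows of extracellular repeats. Fat3 was at 2.23 FPKM in A, 5.76 and 6.10 in B1 and B2, 7.45 and 5.40 in C and D, 3.78 in E and 3.25 in F, with a peak in upper layer 5 (trend adjusted p = 0.0421). That call was lost in 8 alternatives, with adjusted p up to 0.129. Fat1 ranged from 1.32 FPKM in A to 7.48 in F and Fat4 from 0.28 in E to 0.50 in B1, and neither was called on the deposited scale.

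Comparison of neighbouring segments located the steps. The deposited intervals hold no variation between mice, so a 2-fold limit was added to nonoverlap and, where B took part, both litters had to pass. From A to B, 12 of the 29 classifiable cadherins were higher in B (12.3% of all classifiable genes) and Cdh4 and, by its short model, Celsr2 were lower (5.77%). The 12 were Cdh2, Cdh8, Cdh10, Cdh11, Cdh12, Cdh18, Cdh19, Cdh20, Pcdh18, Pcdh20, Fat1 and Fat3. More cadherins differed here than at any other step, and A is also the library in which long transcripts were underrepresented. The part of transcript length was not tested beyond the bins. In length bins 7 cadherins differed there in either direction, but the share over all genes is not given on that scale. From B to C Cdh9 was higher and Pcdh20 lower (3.22% of all genes in either direction). From C to D Cdh9 and Cdh24 were higher (4.1%), and from E to F Cdh24 and Celsr1 were higher and Cdh12 was lower (7.33%). Between the litters, B1 and B2, Cdh24 and Pcdh1 passed the same limits (8.62% of all genes), both higher in B1, so that about as many cadherins differed between replicates as between neighbouring segments below B. Of the 29 classifiable cadherins, 23 were higher in B1 than in B2. In 27 the spread over segments exceeded the gap between the litters. Extremes over all segments tend to lie further apart than a pair of libraries, so nothing is concluded from that count. The shares over all genes are not given for either count. From A to F, 14 were higher in F (32.9%) and Cdh4, Cdh22 and, by its short model, Celsr2 were lower (10.1%).

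Among the cytoplasmic partners of the classical cadherins, 4 rose with depth. Of 11 catenins and adaptors, 7 had a called trend (Ctnna1, Ctnna2, Ctnna3, Ctnnb1, Ctnnd1, Jup and Pkp4), 4 rose and 0 fell (limma; 0 fell at an unadjusted p under 0.05), against 36.5%, 12.4% and 2.54% of all genes, and their median slope was 0.26 against 0.08. The risers were Jup, plakoglobin (0.57 ± 0.06, adjusted p = 0.00251), Ctnnb1, beta-catenin (0.38 ± 0.06, adjusted p = 0.00736), Ctnna1, alpha-E-catenin (0.25 ± 0.07, adjusted p = 0.0446), and Ctnnd1, p120-catenin (0.23 ± 0.05, adjusted p = 0.0306). In length bins Jup and Ctnnb1 still rose, Ctnna1 and Ctnnd1 did not pass and Arvcf, a p120 relative, fell (-0.21). The lowest slope of this list was that of Afdn, afadin (-0.10 ± 0.10). Of the genes named here, Ctnna3 and Arvcf were not classifiable.

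Of 9 planar polarity partners of the Celsr proteins, Prickle2 and the 3 that rose had a called trend. Prickle1 (0.39 ± 0.08, adjusted p = 0.0207), Vangl2 (0.38 ± 0.05, adjusted p = 0.00645) and Vangl1 (0.36 ± 0.07, adjusted p = 0.0173) rose. Vangl1 was low, at 0.16 FPKM in A and 1.02 in F, and was not classifiable. In length bins Prickle1 alone passed. The lowest slope was that of Dvl1 (0.02 ± 0.06). The 2 Fat partners tested, Dchs1 (-0.01) and Fjx1 (-0.02), and the 5 tip-link partners, from Cib2 (-0.09) to Lhfpl5 (0.21), gave 0 called slopes (limma), and 0 at an unadjusted p under 0.05, with a called trend for Cib2 alone. Of 9 other superfamily genes tested, Clstn2, Dsg2 and Ret had a called trend, but Dsg2 and Ret were not classifiable. Dsg2, a desmosomal cadherin, rose (0.51 ± 0.08, adjusted p = 0.0101) from 0.083 FPKM in B1 to 1.04 in F, but not in length bins. The lowest slope of that list was that of Ret (-0.14 ± 0.11), and calsyntenin 1 (Clstn1), at 265 FPKM in A to 624 in B1, was more abundant than any of the 32 genes. Over the 36 pathway genes 8 rose and 0 fell at an adjusted p under 0.05, where 12.4% of all genes rose and 2.54% fell. At an unadjusted p under 0.05 (limma) 11 rose and 0 fell, a threshold at which the shares over all genes are not given. In length bins 3 rose and 1 fell (4.31% and 5.72% of all genes). The oligodendrocyte and layer 6 markers, whose parts were not tested, rose over the same segments.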

How the data were processed

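PolyA RNA of the 7 S1 libraries was sequenced by the authors from paired ends, part of F with longer reads. They mapped reads with TopHat (1.0.13 in the submitters' processing notes) to mm9, and Cufflinks (0.8.3) estimated FPKM, with 95% intervals, for Ensembl release 57 genes and transcripts. The deposited FPKM are linear and features without an entry were set to 0. The transcript coverage the authors deposited, a signal not scaled for depth, served only to estimate fragments (coverage over FPKM, 50 nt reads). Precision follows these intervals, which cover estimation error only. De novo models were not used.

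The 32 genes and all lists were chosen with earlier results of these data known. Values in every library are given for the 2 classifiable members with the largest share per segment, those with a called trend and the 3 highest means. Otherwise the lowest and highest are given, and for pathway lists the called genes and the lowest slopes. Trends (position 1 to 6, F-test of linear and quadratic terms) and slopes were fitted with limma 3.58.1 in R 4.3.3 on log2(FPKM + 0.1), with an intensity trend and Benjamini-Hochberg adjustment over all genes, and tested on simulated data. Centring used 20 bins per library. The changes understate those of low genes. Alternatives varied pseudocount, filter, library scale, GC content, the treatment of B1 and B2, interval width and each library. Length bins, the most abundant transcript in place of the gene and the count by highest segment without A were added after seeing the data. GENCODE M21 and RefSeq promoters (GRCm38.p6) were joined by name only.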

Additional observations from a re-analysis of the deposited data

How the results depend on the processing

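The fit over 6 separate segments called 0 cadherins in place of 18. Leaving out 1 library gave 13 (without A) to 22 (without B1) trend calls, 6 (without E or F) to 12 (without B1) rising slopes and 1 to 5 falling slopes. The 5 falling without A were Cdh22, Cdh7, Cdh8, Cdh12 and Pcdh20. Without A, 12.1% of all genes had a called trend, 9.95% rose and 2.71% fell. These shares are not given for the other runs without 1 library or without mitochondrial genes in the sum. Falling slopes numbered 2 in GC bins and 3 in length bins. Rising pathway genes numbered 8, and 5 without mitochondrial genes in the sum, 5 in GC bins, 3 in length bins (1 falling) and 4 to 8 without 1 library, with 4 without F and 5 without E.

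Genes highest in A numbered 5 in GC bins and 9 in length bins. Those highest in B numbered 8 without mitochondrial genes, 2 without B1 and 8 without B2, those in C 5 to 8 (8 without B1) and those in D 1 in GC bins, in length bins, by main transcript and without B2. Those highest in E numbered 5 in GC bins and by main transcript, and those in F 7 in GC and in length bins. The shares over all genes are not given for these runs.

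At 1.5-fold, neighbouring segments differed in 7 (B to C), 7 (C to D), 9 (D to E) and 7 (E to F) genes and the litters in 8. With no fold limit these were 15, 19, 18, 19 and 18. The shares over all genes are not given for these limits or for the counts in the next 2 sentences. In length bins A to B gave 7 and the litters 0, with widened intervals the litters gave 1, and B to C gave 2 to 6 (6 without B1). Opposite transcripts were found in 5 genes at an interval limit of 100% and in 1 without B2. Single-gene slopes kept direction and call in 165 cases and lost the call in 23, trends in 307 and 32, with 0 reversals. Leaving out 1 library ended slope calls of Cdh2 (E or F, adjusted p up to 0.0551), Cdh19 (B2, D, E or F, up to 0.0793) and Celsr1 (any but B1, up to 0.229). It ended trend calls of Cdh10, Cdh19 and Pcdh7 (A, 0.147, 0.0808 and 0.188), Cdh12 (E or F, up to 0.208), Cdh8 (C, 0.0577), Celsr1 (C or F, up to 0.330), Celsr2 (A, D or E, up to 0.321), Fat3 (any but B1 or F, up to 0.129) and Pcdh10 (A, D or E, up to 0.268). The causes were not tested. No paired analysis was possible because layer 4 alone had replicates.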
